A study of Mus musculus with 20 samples.

Results

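Transcript levels of 10 genes of iron handling and heme breakdown were followed across 20 mouse macrophage RNA-seq libraries. They were taken by gene name from the gene count tables: Hmox1, Fth1, Ftl1, Tfrc, Slc40a1, Slc11a1, Slc11a2, Ireb2, Aco1 and Ncoa4, which is 10 of the 56748 genes listed. All 10 passed the filter on low counts in both tables. The BMDM table held 12 libraries, 3 for each of wildtype (WT) unstimulated, WT stimulated, iNOS knockout (KO) unstimulated and iNOS KO stimulated. Its labels name bone marrow-derived macrophages (BMDM) from C57BL/6J mice, grown with 20 ng/mL of the growth factor M-CSF. The iNOS KO mice carry the B6.129P2-Nos2tm1Lau/J allele, and by the study's methods marrow was pooled by genotype. Stimulation was 50 ng/mL lipopolysaccharide (LPS) with 30 ng/mL interferon gamma (IFNγ) for 48 h. The RAW264.7 table held 8 libraries of this mouse macrophage-like cell line, 2 for each of WT and Akr1a1 KO, unstimulated or kept for 48 h with LPS at 50 ng/mL and IFNγ at 10 ng/mL. The Akr1a1 KO lines were single-cell sorted CRISPR clones, and the replicates were independent clones. iNOS, encoded by Nos2, makes nitric oxide, and AKR1A1 reduces S-nitroso-CoA, a carrier of nitric oxide groups.

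Several facts of the libraries touch the results. The study's methods describe the RNA of the iNOS KO experiment as coming from RAW264.7 cells, so the cell type of the libraries labelled BMDM is not settled here. Levels in CPM are counts scaled to a common library size, by TMM-normalised totals. In unstimulated WT libraries labelled BMDM, 9 of 10 macrophage markers had a mean of at least 1 CPM. Adgre1 was among them at 104 CPM, and Mertk was the exception at 0.190 CPM. The 10 markers summed to 8521 to 8854 CPM there. In unstimulated WT RAW264.7 libraries 9 of the 10 also reached that mean, with a sum of 4703 to 5229 CPM. Whether these levels separate the cell types was not tested. In the RAW264.7 table, unstimulated replicate B of each genotype has a title that reads stimulated, while the treatment field and library name read unstimulated, and the field was followed. Nos2 was at 4.21 and 30.7 CPM in unstimulated WT and at 38.1 and 54.7 CPM in unstimulated Akr1a1 KO RAW264.7 libraries. Stimulated libraries had 4155 and 5899 CPM in WT and 4445 and 8806 CPM in Akr1a1 KO. By Nos2 level, replicate B of each genotype thus matched the field and not the title. Library totals ran from 15072109 to 18878107 counts in the BMDM table and from 11876719 to 44583327 in the RAW264.7 table. Nos2 had 0 counts in all 3 unstimulated iNOS KO libraries, 870 to 912 CPM in the stimulated ones and 10370 to 11533 CPM in stimulated WT libraries, a difference of -3.64 on the log2 scale (adjusted p = 4.96e-15). Akr1a1 was at 427 and 488 CPM in unstimulated WT libraries against 206 and 21.8 in Akr1a1 KO, and at 576 and 675 CPM against 370 and 212 after stimulation, with adjusted p of 0.56 and 0.643. Stimulated iNOS KO library B stood apart from its group, with a median absolute log2 difference per gene of 0.209 against 0.0479 to 0.137 in the other BMDM libraries. Its shortest genes by quartile lay 0.134 above the rest of the group and its longest at -0.142. Values or counts without it are given where a call changes or a called value moves by over 1.5 times. Globin genes, which would mark red cell precursors that also handle much iron, were near 0: the summed level of 9 erythroid markers was at most 1.11 CPM in the BMDM and 2.20 CPM in the RAW264.7 libraries. In bulk RNA, fewer cells of a type and less RNA per cell cannot be told apart.

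Cells take up iron bound to transferrin through the transferrin receptor, move it out of endosomes through divalent metal transporters, store it in ferritin shells built of heavy and light chains, and release it through ferroportin. Macrophages also recover iron from heme, which heme oxygenase cleaves to biliverdin, carbon monoxide and iron. When cellular iron is low, the iron regulatory proteins bind hairpins called iron-responsive elements (IREs). A hairpin in the 5′ untranslated region (UTR) then blocks translation, and hairpins in the 3′ UTR protect the mRNA from decay. Transcript levels of ferritin are therefore only a part of ferritin control, and no protein was measured here.

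The hairpins that 1 strict pattern found in the listed genes are shown because the UTR they lie in differs between these genes. The search was for a C, 5 bases, a loop CAGTGN and 5 bases pairing with the first 5, G-T pairs allowed, on the transcript strand of GENCODE vM21 coding transcripts (GRCm38). Capitals mark the loop.
Fth1, 5′ UTR, chr19:9982732-9982760, plus strand: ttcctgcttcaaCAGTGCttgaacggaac
Ftl1, 5′ UTR, chr7:45459779-45459807, minus strand: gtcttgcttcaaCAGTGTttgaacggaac
Slc40a1, 5′ UTR, chr1:45925465-45925493, minus strand: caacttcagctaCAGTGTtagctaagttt
Tfrc, 3′ UTR, chr16:32631219-32631247, plus strand: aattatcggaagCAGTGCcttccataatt
Tfrc, 3′ UTR, chr16:32631598-32631626, plus strand: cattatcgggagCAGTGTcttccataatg
Tfrc, 3′ UTR, chr16:32631663-32631691, plus strand: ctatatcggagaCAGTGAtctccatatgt
Tfrc, 3′ UTR, chr16:32631710-32631738, plus strand: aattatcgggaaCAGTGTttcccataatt

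The ferritin elements share the same stem and loop start, and Tfrc is the only listed gene with a match in the 3′ UTR, where it has 4. Such a match was found in the 5′ UTR of 31 of 20916 genes (0.148%) and in the 3′ UTR of 129 of 21045 genes (0.613%). The Fth1 element lies in 4 of 5 coding transcripts, the Ftl1 element in 1 of 2, the Slc40a1 element in 1 of 4 and the Tfrc elements in 1 of 3. The gene counts do not separate these transcripts. Hmox1, Slc11a1, Slc11a2, Ireb2, Aco1 and Ncoa4 had no match, which says only that this pattern with full pairing is not in their annotated UTRs. A hairpin with an unpaired base in this stem would be missed, in these genes or in Tfrc. The matches therefore do not sort all the listed genes by kind of control.

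The design asks which genes respond to LPS and IFNγ, and which of these responses differ where iNOS is lacking. In WT libraries of the BMDM table, stimulation raised Hmox1, both ferritin chains, Slc11a1, Slc11a2 and Slc40a1, and lowered Ireb2. That is 7 of the 10 genes, 6 higher and 1 lower, where 60.9% of all 18691 genes tested passed the same limit of an adjusted p under 0.05, 32.4% higher and 28.5% lower. The median log2 change was 0.96 for the 10 genes and 0.07 for all genes. In iNOS KO libraries 9 of 10 passed, 5 higher and 4 lower, against 51.9% of all genes, 27.3% higher and 24.6% lower. Between stimulated iNOS KO and WT libraries, 8 of 10 were lower and none was higher, against 48.4% of all genes in either direction and 24.2% in the lower direction. The median there was -0.58 for the 10 genes and -0.04 for all genes. Without stimulated iNOS KO library B, Ireb2 passed as higher in that comparison, at 0.30, and the same 8 genes were lower. These comparisons share libraries and the 10 genes were read from the same libraries, so the counts are not independent of each other.

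**Figure D1:**
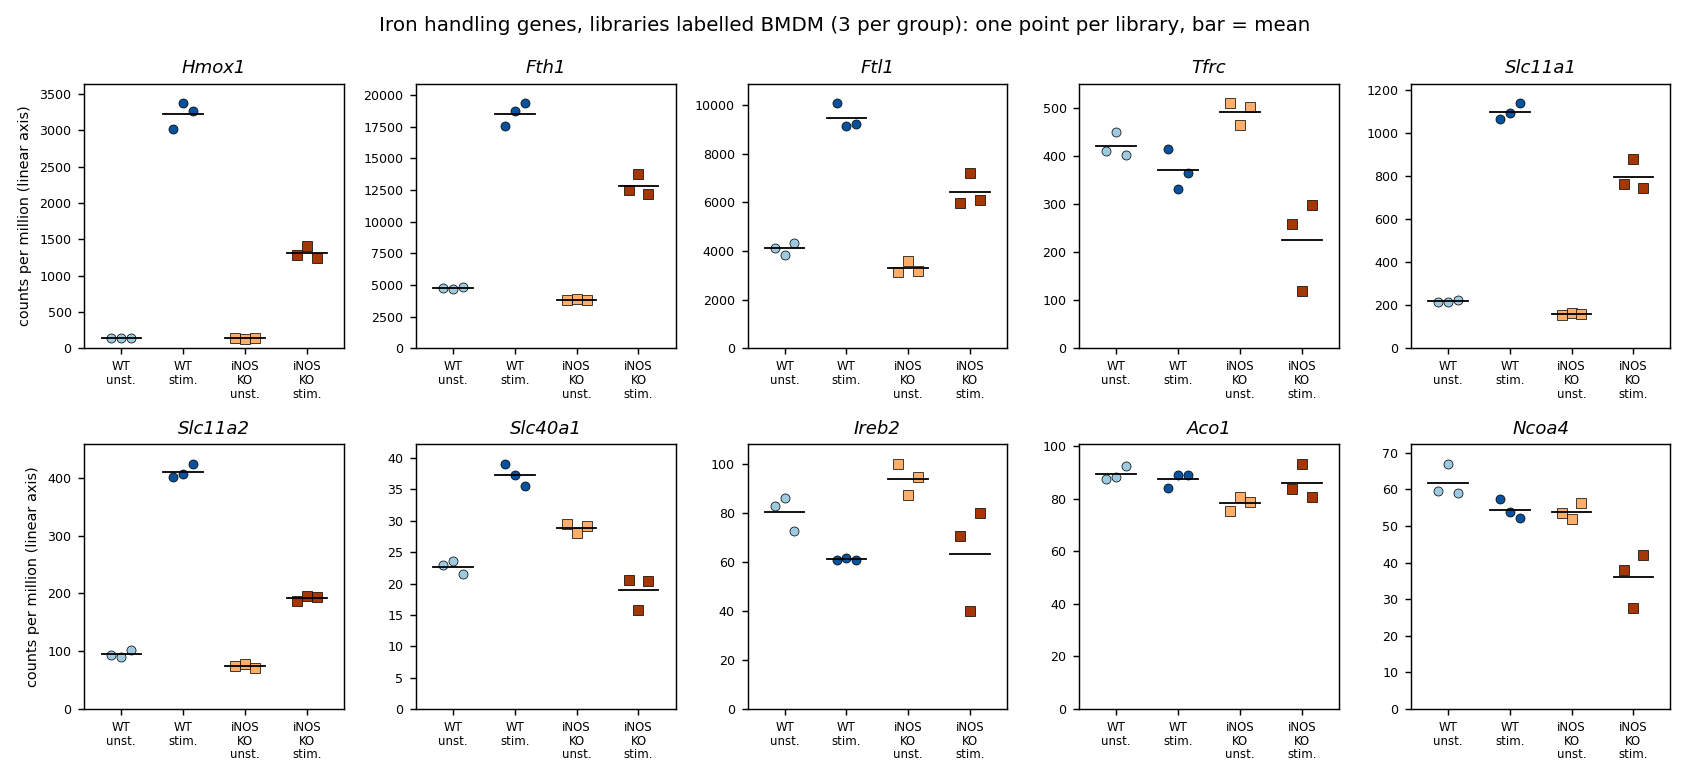
Normalised level (CPM, linear axis from 0) of each of the 10 genes in the 12 libraries labelled BMDM, 1 point per library, with a bar at the mean of each group of 3. Hmox1 rises from 138 to 146 CPM in unstimulated WT libraries to between 3014 and 3371 CPM after stimulation, and iNOS KO libraries reach 1247 to 1414 CPM.

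Hmox1 (ENSMUSG00000005413, chromosome 8, 75820249 to 75827217 as the table lists it) encodes heme oxygenase 1, the inducible heme-cleaving enzyme. Its level was 138, 146 and 146 CPM in unstimulated WT libraries and 3014, 3371 and 3269 CPM after stimulation. In iNOS KO libraries it was 138, 134 and 141 CPM before and 1280, 1414 and 1247 CPM after. The stimulated groups overlapped neither with each other nor with the unstimulated libraries. Stimulation raised Hmox1 by 4.49 (SE 0.071) on the log2 scale in WT, or 22.4-fold (adjusted p = 7.81e-18). In iNOS KO libraries the rise was 3.26 (SE 0.067), or 9.56-fold (adjusted p = 2.45e-16). The response was smaller by -1.23 (SE 0.088) in iNOS KO (adjusted p = 9.69e-09, test of the difference of the responses). The stimulated genotypes differed by -1.29 (SE 0.062, adjusted p = 3.02e-11). Unstimulated libraries of the genotypes differed by -0.06 (SE 0.063, adjusted p = 0.675), so a difference before stimulation was not detected for Hmox1. Per kilobase of the gene length the table lists, Hmox1 moved from rank 471 to rank 18 of 13208 protein-coding genes in WT libraries and reached rank 38 in stimulated iNOS KO libraries.

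The ferritin chains were among the most abundant transcripts. Fth1 (ENSMUSG00000024661, chromosome 19, 9957962 to 9962462) encodes the heavy chain, which oxidises iron for storage. It measured 4772, 4687 and 4824 CPM in unstimulated WT libraries and 17538, 18703 and 19345 CPM after stimulation. In iNOS KO it measured 3791, 3912 and 3798 CPM before and 12471, 13748 and 12188 CPM after. All 4 groups were separate, with iNOS KO below WT in both states. Ftl1 (ENSMUSG00000050708, chromosome 7, 45107368 to 45109308) encodes the light chain, which helps form the iron core. Its WT levels were 4132, 3848 and 4345 CPM before and 10074, 9154 and 9235 CPM after stimulation. Its iNOS KO levels were 3144, 3591 and 3173 CPM before and 5964, 7210 and 6112 CPM after. Here too iNOS KO lay below WT in both states without overlap.

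Stimulation raised Fth1 by 1.96 (SE 0.057, adjusted p = 1.09e-14) and Ftl1 by 1.21 (SE 0.077, adjusted p = 4.11e-10) on the log2 scale in WT libraries. In iNOS KO libraries the rises were 1.74 (SE 0.056, adjusted p = 7.96e-14) and 0.96 (SE 0.077, adjusted p = 1.53e-08). Stimulated iNOS KO libraries were lower by -0.53 (SE 0.055) for Fth1 and -0.56 (SE 0.077) for Ftl1, with adjusted p of 4e-07 and 1.01e-05. Both chains were already lower in unstimulated iNOS KO libraries, each by -0.31, with adjusted p of 0.00161 for Fth1 and 0.0189 for Ftl1. The Ftl1 call was lost, at -0.31 to -0.27, on leaving out unstimulated library A or C of either genotype. The difference of the responses was accordingly small: -0.22 (SE 0.078, adjusted p = 0.0352) for Fth1 and -0.25 (SE 0.108, adjusted p = 0.0902) for Ftl1. The Fth1 call was lost on leaving out any library other than stimulated WT A, stimulated iNOS KO A or stimulated iNOS KO B, with values from -0.23 to -0.19 in those fits. Without stimulated iNOS KO library B the differences were -0.27 (adjusted p = 0.000652) and -0.34 (adjusted p = 0.00094), and Ftl1 then passed. Ftl1 also passed with another filter on low counts (filterByExpr) and with none, so in 3 of 19 alternatives.

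Together Fth1 and Ftl1 took 1.01% ± 0.027 (SD, n = 3) of all counts in unstimulated WT libraries and 2.32% ± 0.031 after stimulation. In iNOS KO libraries the share went from 0.846% ± 0.028 to 1.71% ± 0.133. The heavy chain rose more than the light chain in both genotypes. The log2 ratio of Fth1 to Ftl1 counts, not corrected for length, moved from 0.21 ± 0.067 to 0.97 ± 0.145 in WT and from 0.22 ± 0.082 to 1.00 ± 0.067 in iNOS KO (SD, n = 3), with no overlap between states. The genotypes differed in this ratio by 0.03 after stimulation and by 0.003 before (two-sided exact permutation tests, p = 0.9 and 1). With 3 against 3 libraries the smallest p such a test can give is 0.1, which the shift with stimulation reached in each genotype. Copies of the ferritin genes share sequence with them: Ftl1-ps1, which the table lists as protein-coding, held 26619 counts in the BMDM table, and the light chain copies together held at most 2.56% of light chain counts. Per kilobase, Ftl1 ranked 4 and Fth1 ranked 10 of 13208 protein-coding genes in unstimulated WT libraries, and Ftl1 ranked 1 and Fth1 ranked 4 after stimulation.

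**Figure D2:**
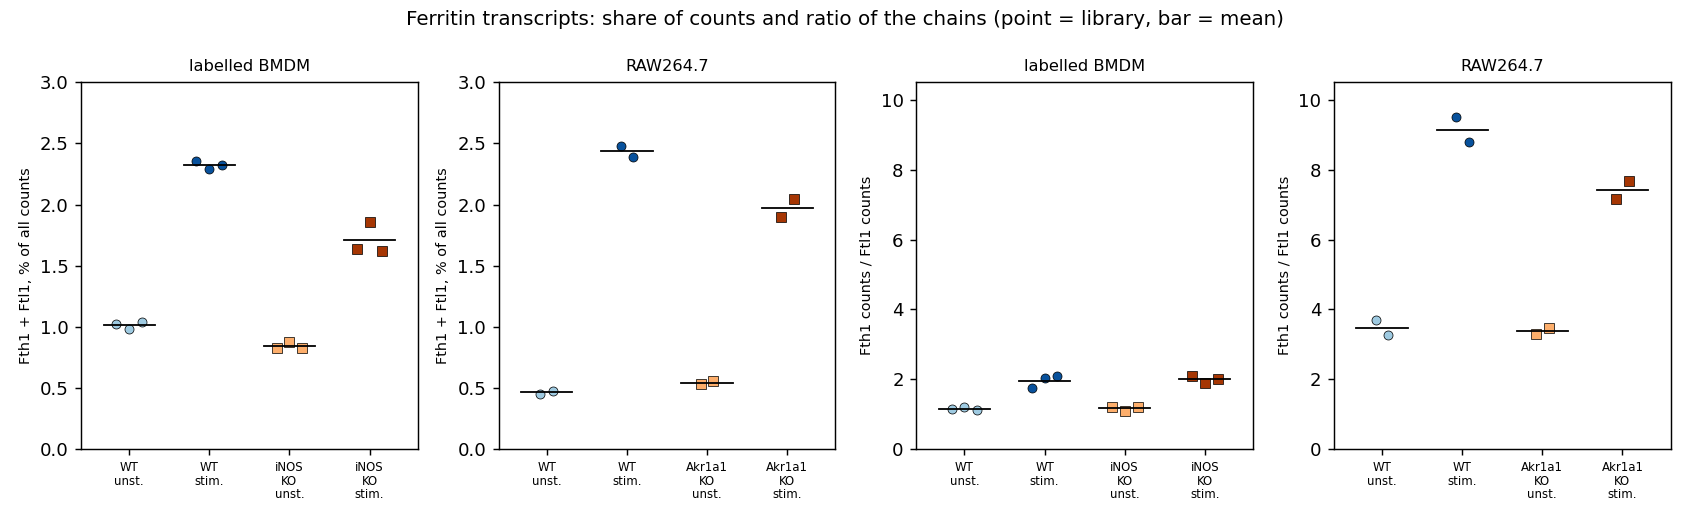
Share of all counts taken by Fth1 and Ftl1 together (percent, linear axis from 0) and linear ratio of Fth1 to Ftl1 counts in each of the 20 libraries, 1 point per library with a bar at the group mean. Both measures are higher in every stimulated library than in any unstimulated library of the same table, and the ratio in stimulated BMDM-labelled libraries runs from 1.74 to 2.09 against 1.09 to 1.22 unstimulated.

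Among the transporters, the divalent metal transporters rose strongly and the transferrin receptor did not. Slc11a1 (NRAMP1; ENSMUSG00000026177, chromosome 1, 74414354 to 74425221) encodes a metal ion transporter of phagosomes, whose function in these cells was not measured. It stood at 217, 217 and 226 CPM in unstimulated WT libraries and at 1063, 1094 and 1138 CPM after stimulation. The iNOS KO levels were 153, 162 and 158 CPM before and 761, 879 and 743 CPM after. The 4 groups did not overlap. The response was 2.32 (SE 0.068, adjusted p = 1.34e-14) in WT and 2.33 (SE 0.068, adjusted p = 2.19e-14) in iNOS KO, a difference of 0.01 (SE 0.092, adjusted p = 0.966). The iNOS KO libraries were lower by about the same amount in both states, by -0.48 (SE 0.066, adjusted p = 0.000163) unstimulated and by -0.47 (SE 0.065, adjusted p = 1.26e-05) stimulated.

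Slc11a2 (DMT1; ENSMUSG00000023030, chromosome 15, 100285779 to 100322953) carries ferrous iron across the endosome membrane. It read 93.1, 90.6 and 101 CPM in unstimulated WT libraries and 401, 406 and 424 CPM after stimulation. In iNOS KO it read 74.9, 78.7 and 71.3 CPM before and 186, 195 and 194 CPM after. Every stimulated WT library lay above every iNOS KO library, and the 4 groups did not overlap. The response was 2.11 (SE 0.066, adjusted p = 3.02e-14) in WT and 1.36 (SE 0.065, adjusted p = 1.64e-11) in iNOS KO, smaller by -0.75 (SE 0.090, adjusted p = 4.63e-06). The genotypes differed by -1.09 (SE 0.064, adjusted p = 3.23e-10) after stimulation and by -0.34 (SE 0.065, adjusted p = 0.00304) before. The paralogs Slc11a1 and Slc11a2 thus both rose, but the response of Slc11a2 differed with genotype where a difference was not detected for Slc11a1.

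Tfrc (ENSMUSG00000022797, chromosome 16, 32427738 to 32451612), the transferrin receptor with the 4 hairpins printed above, behaved otherwise. It measured 410, 451 and 403 CPM in unstimulated WT libraries and 415, 332 and 366 CPM after stimulation, with overlap. In iNOS KO it measured 511, 465 and 502 CPM before and 259, 120 and 299 CPM after. Library B gave the lowest of these values, and all 3 stimulated iNOS KO libraries lay below every other library. Tfrc changed by -0.18 (SE 0.205, adjusted p = 0.46) in WT and fell by 1.12 (SE 0.208, adjusted p = 0.000221) in iNOS KO. The responses differed by -0.94 (SE 0.291, adjusted p = 0.0181). Without stimulated iNOS KO library B, the fall in iNOS KO was -0.82 (adjusted p = 3.9e-10), the difference of the responses was -0.64 (adjusted p = 6.93e-06), and the WT value of -0.18 passed (adjusted p = 0.0174). Without stimulated WT library A the difference of the responses was -0.85 and did not pass (adjusted p = 0.0541). Stimulated iNOS KO libraries were lower than stimulated WT libraries by -0.71 (SE 0.207, adjusted p = 0.00873), or by -0.41 (adjusted p = 3.86e-05) without library B. With these groups fitted alone, Tfrc was lower by -0.64 and did not pass (adjusted p = 0.0772), which takes the count of genes lower in stimulated iNOS KO from 8 to 7.

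Slc40a1 (ferroportin; ENSMUSG00000025993, chromosome 1, 45947228 to 45965683) is the known exporter of iron from cells, and it moved in opposite directions in the genotypes. Its level in WT libraries was 23.0, 23.6 and 21.5 CPM before and 39.1, 37.3 and 35.5 CPM after stimulation. In iNOS KO libraries it was 29.5, 28.1 and 29.1 CPM before and 20.5, 15.9 and 20.5 CPM after. The 4 groups were separate, and the order of the genotypes was turned around by stimulation. Slc40a1 rose by 0.72 (SE 0.095, adjusted p = 4.5e-06) in WT and fell by 0.61 (SE 0.097, adjusted p = 5.1e-05) in iNOS KO. The responses differed by -1.32 (SE 0.136, adjusted p = 7.56e-07), or -1.21 without stimulated iNOS KO library B (adjusted p = 5.08e-10). The stimulated genotypes differed by -0.97 (SE 0.097, adjusted p = 2.75e-07). Unstimulated iNOS KO libraries were higher by 0.35 (SE 0.094, adjusted p = 0.0372), a call that was lost on leaving out any of the 6 unstimulated libraries or stimulated WT library B. Per kilobase, Slc40a1 was the lowest of the 10 genes, at rank 7988 of 13208 in unstimulated WT libraries.

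**Figure D3:**
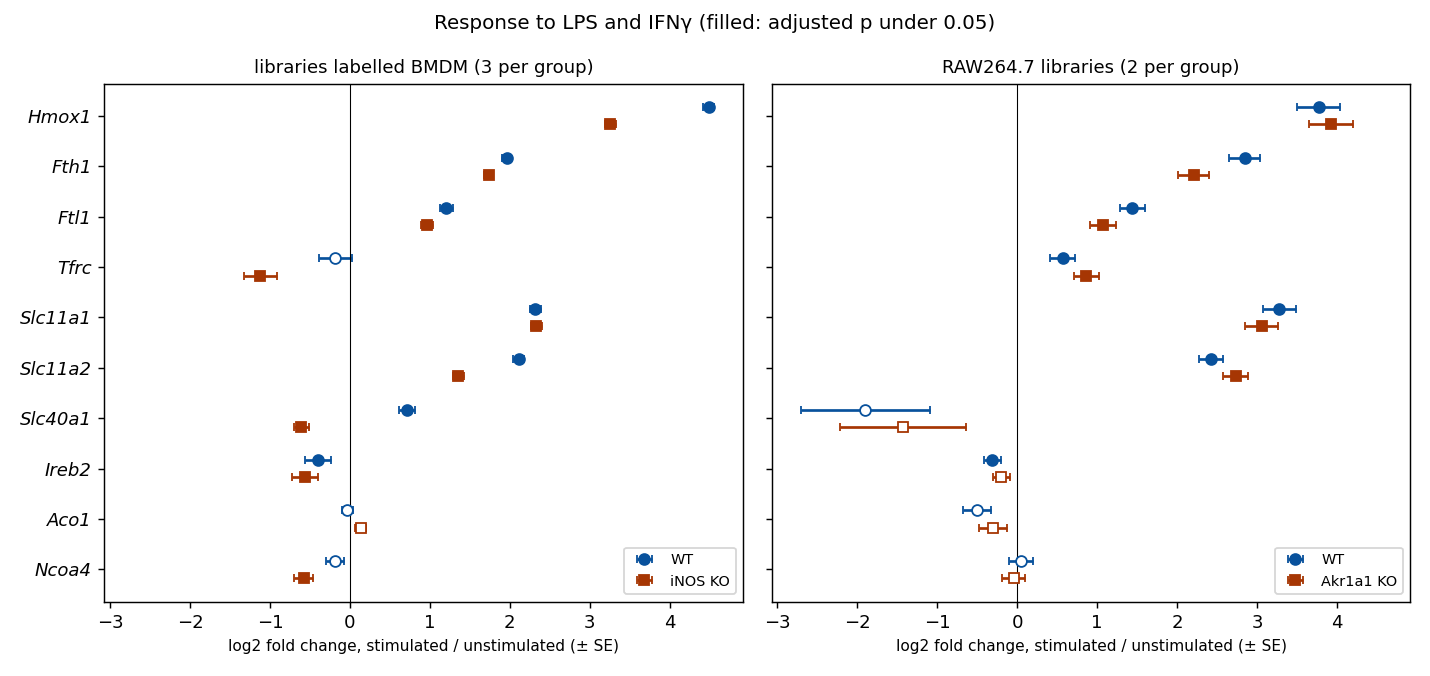
Log2 change with stimulation for each of the 10 genes by genotype in both tables, with points at the fitted value, bars of 1 SE and filled points for an adjusted p under 0.05. In the BMDM table Slc40a1 lies at 0.72 in WT and at -0.61 in iNOS KO, whereas Slc11a1 lies at 2.32 and 2.33.

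Of the iron regulatory proteins and the ferritin receptor, Ireb2 and Ncoa4 were lower in stimulated iNOS KO libraries than in unstimulated ones, and Aco1 did not pass. Ireb2 (ENSMUSG00000032293, chromosome 9, 54771073 to 54819814) encodes IRP2, which iron-dependent degradation removes. It stood at 82.8, 86.1 and 72.6 CPM in unstimulated WT libraries and at 60.8, 61.7 and 60.9 CPM after stimulation. In iNOS KO it stood at 100, 87.4 and 94.7 CPM before and at 70.5, 39.9 and 80.0 CPM after. Each genotype was lower after stimulation without overlap, and library B was again the lowest. Ireb2 fell by 0.40 (SE 0.165, adjusted p = 0.0471) in WT and by 0.56 (SE 0.164, adjusted p = 0.00817) in iNOS KO. The WT call was lost on leaving out any library other than unstimulated WT C, stimulated iNOS KO B or stimulated iNOS KO C. The stimulated genotypes differed by 0.06 (SE 0.166, adjusted p = 0.808), but by 0.30 without stimulated iNOS KO library B (adjusted p = 0.00152), so this value rests on that library. Without library B the fall of Ireb2 in iNOS KO was -0.32 (adjusted p = 0.000586), and the difference of the responses went from -0.17 (adjusted p = 0.638) to 0.08 (adjusted p = 0.602).

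Aco1 (ENSMUSG00000028405, chromosome 4, 40143081 to 40198338) encodes IRP1, which is cytosolic aconitase when it holds its iron-sulfur cluster and binds IREs when it does not. Its level ran from 75.4 to 93.2 CPM over all 12 libraries, with the 3 lowest values in unstimulated iNOS KO and overlap among the other groups. The changes with stimulation were -0.03 (SE 0.069, adjusted p = 0.706) in WT and 0.13 (SE 0.069, adjusted p = 0.116) in iNOS KO. Ncoa4 (ENSMUSG00000056234, chromosome 14, 31881822 to 31901812) is the receptor that delivers ferritin to autophagy. It measured 59.5, 66.9 and 59.1 CPM in unstimulated WT libraries and 57.3, 53.7 and 52.2 CPM after stimulation. In iNOS KO it measured 53.5, 51.8 and 56.3 CPM before and 38.1, 27.7 and 42.1 CPM after. Stimulated iNOS KO libraries were the lowest, below every other library. Ncoa4 changed by -0.18 (SE 0.112, adjusted p = 0.167) in WT and fell by 0.58 (SE 0.114, adjusted p = 0.000383) in iNOS KO. The difference of the responses, -0.39 (SE 0.16), had an adjusted p of 0.0661, and passed in 5 of 19 alternatives. These were DESeq2, its size factors in edgeR, another filter on low counts (filterByExpr), no filter, and leaving out stimulated iNOS KO library C. Without library C it was -0.52 (adjusted p = 0.0106). Without stimulated iNOS KO library B it was -0.24 (adjusted p = 0.0546), and the WT change of -0.18 passed (adjusted p = 0.0145). Stimulated iNOS KO libraries were lower than stimulated WT libraries by -0.59 (SE 0.115, adjusted p = 0.000365), and by -0.44 without library B (adjusted p = 1.77e-05).

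Across the BMDM table the responses of 5 of the 10 genes differed between genotypes, all with a lower value in iNOS KO, against 35.4% of all genes in either direction and 15.4% in the lower direction. In unstimulated libraries 5 of the 10 differed between genotypes, against 5.98% of all genes: Slc40a1 was higher in iNOS KO, where 1.88% of all genes were, and Fth1, Ftl1, Slc11a1 and Slc11a2 were lower, where 4.09% were. This last count ranged from 3 to 9 when a library was left out, with 3 without unstimulated WT A or C or unstimulated iNOS KO A or C, and 9 without stimulated iNOS KO B. With an added limit of 1 on the absolute log2 change, 5 of the 10 genes passed for the iNOS KO response, 2 for the stimulated genotypes, 0 for the unstimulated genotypes and 2 for the difference of the responses, against 22.8%, 19.6%, 1.66% and 15% of all genes. The macrophage marker list also differed between unstimulated genotypes, with a summed level of 8521 to 8854 CPM in WT and 6087 to 6470 CPM in iNOS KO over 10 markers, 5 of which were lower in iNOS KO and none higher. After stimulation the same sum was 8565 to 9477 CPM in WT and 13066 to 13746 CPM in iNOS KO. Of these markers 4 were higher and 3 lower in iNOS KO, where 48.4% of all genes differed. Most of that sum was Lyz2, at 3677 CPM in WT and 7233 CPM in iNOS KO, and Cd14, at 1647 and 2882 CPM. The part of these marker levels in the values of the 10 genes was not tested.

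**Figure D4:**
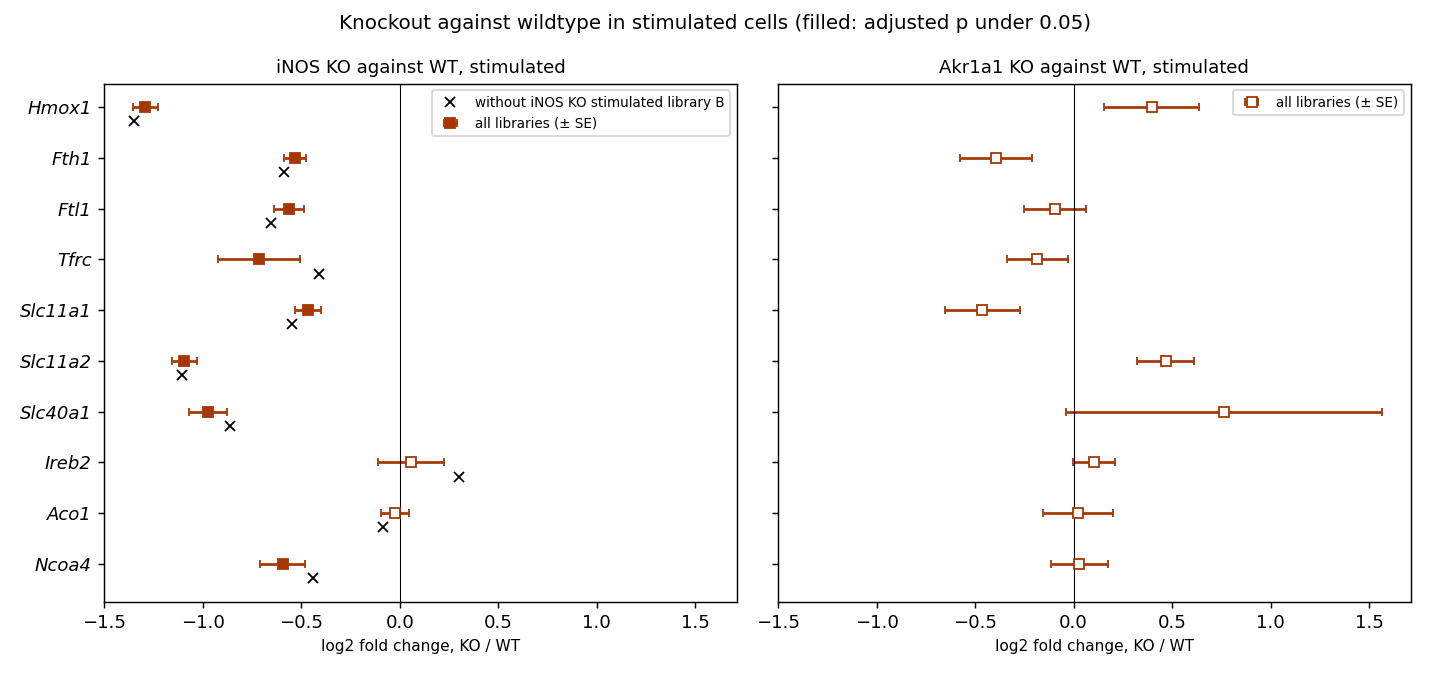
Log2 difference of knockout minus WT for each of the 10 genes in stimulated libraries of both tables, with squares at the fitted value, bars of 1 SE, filled squares for an adjusted p under 0.05, and crosses for the iNOS KO values without stimulated iNOS KO library B. In the BMDM table the values run from -1.29 for Hmox1 to 0.06 for Ireb2, which moves to 0.30 without library B, and in RAW264.7 libraries no square is filled.

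The RAW264.7 table compares Akr1a1 KO with WT cells in the same states. Stimulation of WT cells raised Hmox1, Fth1, Ftl1, Tfrc, Slc11a1 and Slc11a2 and lowered Ireb2, 7 of 10 against 37.7% of all 19569 genes tested, 18.5% higher and 19.2% lower. In Akr1a1 KO cells the same 6 genes that rose in WT passed and rose, against 39.2% of all genes, 19.8% higher and 19.4% lower. No listed gene passed between Akr1a1 KO and WT, by edgeR's quasi-likelihood test, in stimulated libraries (0.286% of all genes), in unstimulated libraries (0.583%) or in the difference of the responses (0.0204%). At an unadjusted p under 0.05, 2 of the 10 passed in stimulated libraries (Slc11a1 and Slc11a2), 1 in unstimulated libraries (Tfrc) and 1 in the difference of the responses (Fth1), against 11.1%, 8.04% and 5.51% of all genes. With DESeq2, Fth1 passed in the stimulated comparison and in the difference of the responses. With 2 libraries a group, the SE of a difference reached 0.801 for Slc40a1 and 0.242 for Hmox1 in stimulated cells, so that only large differences could be detected. The summed macrophage markers were at 12458 to 12797 CPM in stimulated WT and 5532 to 9506 CPM in stimulated Akr1a1 KO libraries. Unstimulated, they were at 4703 to 5229 and 3649 to 3837 CPM. Of 9 tested markers, 1 was lower and 0 higher in Akr1a1 KO in each state. Their part in the values of the 10 genes was not tested.

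**Figure D5:**
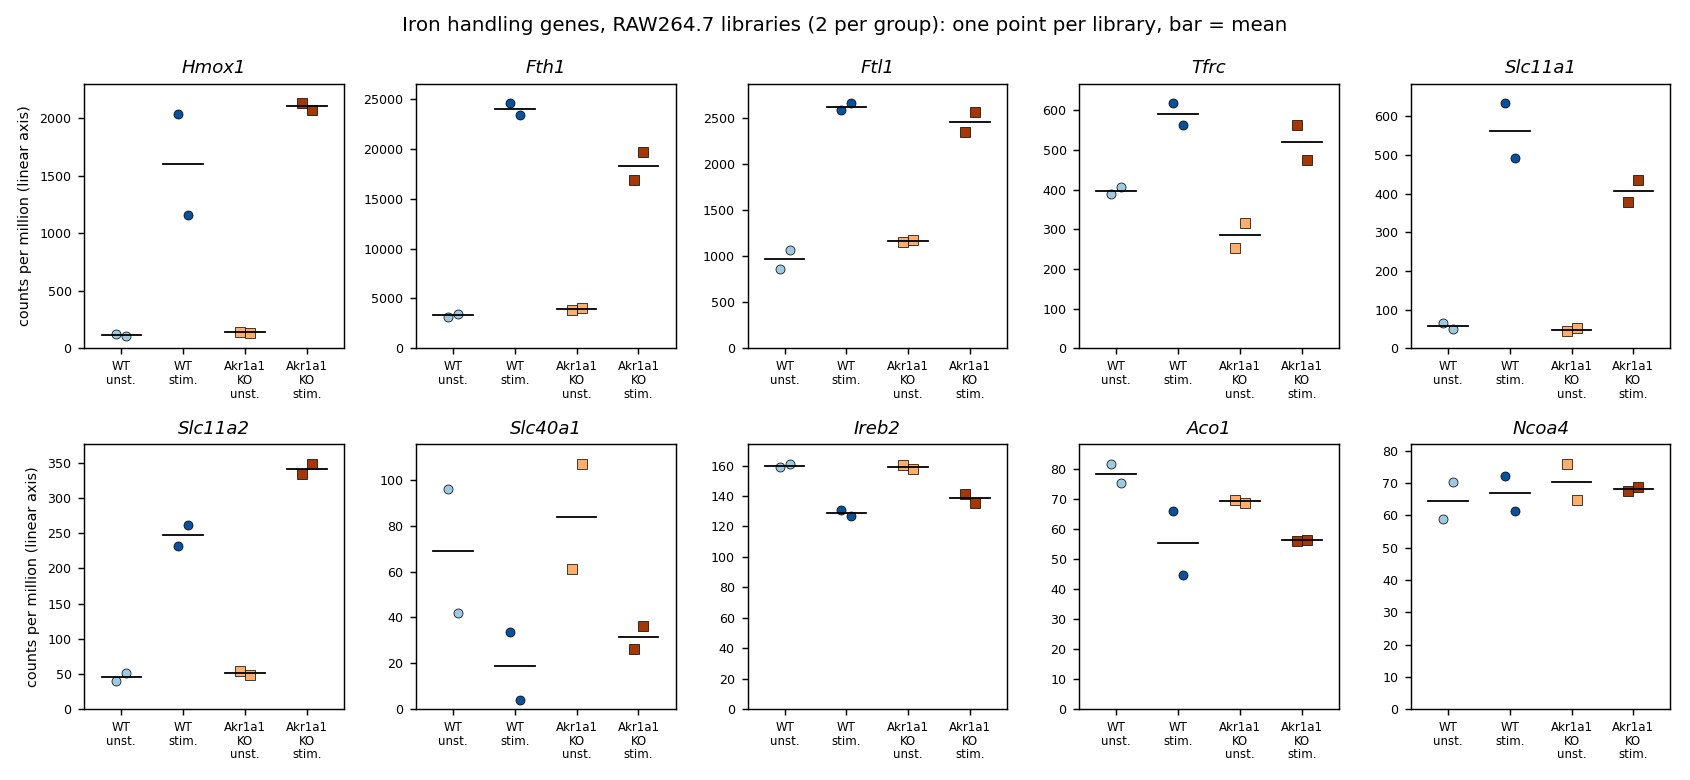
Normalised level (CPM, linear axis from 0) of each of the 10 genes in the 8 RAW264.7 libraries, 1 point per library, with a bar at the mean of each group of 2. Stimulated WT libraries differ for Hmox1, at 2036 and 1161 CPM, and for Slc40a1, at 33.5 and 3.77 CPM.

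Hmox1 measured 127 and 107 CPM in unstimulated and 2036 and 1161 CPM in stimulated WT libraries. In Akr1a1 KO it measured 142 and 135 CPM before and 2131 and 2074 CPM after. The stimulated libraries of the genotypes did not overlap, but WT replicates lay far apart. The rise was 3.77 (SE 0.271, adjusted p = 2.42e-05) in WT and 3.92 (SE 0.273, adjusted p = 2.1e-05) in Akr1a1 KO, and the stimulated genotypes differed by 0.40 (SE 0.242, adjusted p = 0.593).

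Fth1 was at 3182 and 3495 CPM in unstimulated WT libraries and at 24576 and 23422 CPM after stimulation. The Akr1a1 KO levels were 3824 and 4086 CPM before and 16843 and 19709 CPM after. Stimulated Akr1a1 KO libraries lay below both stimulated WT libraries, by -0.39 (SE 0.184) on the log2 scale, with an adjusted p of 0.471 by edgeR and 0.0398 by DESeq2. The Fth1 response was 2.85 (SE 0.197, adjusted p = 1.96e-05) in WT and 2.21 (SE 0.192, adjusted p = 5.92e-05) in Akr1a1 KO, a difference of -0.64 (SE 0.260) with an adjusted p of 0.894 by edgeR and 0.0277 by DESeq2. Ftl1 went from 863 and 1070 CPM to 2586 and 2664 CPM in WT and from 1160 and 1174 CPM to 2348 and 2567 CPM in Akr1a1 KO. As in the other table, the heavy chain rose more than the light chain: the log2 ratio of Fth1 to Ftl1 counts moved from 1.79 to 3.19 in WT and from 1.76 to 2.89 in Akr1a1 KO, with an exact permutation p of 0.333 in each, the smallest that 2 against 2 allow.

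Slc11a1 went from 66.3 and 49.8 CPM to 634 and 491 CPM in WT and from 44.6 and 52.8 CPM to 379 and 436 CPM in Akr1a1 KO, rises of 3.28 (SE 0.208, adjusted p = 1.27e-05) and 3.06 (SE 0.206, adjusted p = 1.75e-05). Slc11a2 went from 40.4 and 51.3 CPM to 232 and 261 CPM in WT and from 53.8 and 48.7 CPM to 334 and 348 CPM in Akr1a1 KO, rises of 2.43 (SE 0.153, adjusted p = 1.22e-05) and 2.74 (SE 0.154, adjusted p = 7.6e-06). For these transporters the stimulated genotypes stood in opposite order, Slc11a1 lower and Slc11a2 higher in Akr1a1 KO, without overlap, and neither passed the test (adjusted p = 0.423 and 0.292). Tfrc rose in RAW264.7 cells, from 389 and 407 CPM to 618 and 563 CPM in WT and from 253 and 317 CPM to 564 and 476 CPM in Akr1a1 KO. The rises were 0.57 (SE 0.156, adjusted p = 0.0209) and 0.86 (SE 0.157, adjusted p = 0.00277), and the WT call was lost on leaving out either unstimulated WT library. Tfrc in the BMDM table had -0.18 and -1.12 beside these, at another IFNγ dose and in a table normalised separately.

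Slc40a1 was the least settled gene in RAW264.7 cells. It was at 95.9 and 42.1 CPM in unstimulated WT libraries and at 33.5 and 3.77 CPM after stimulation, and at 61.0 and 107 CPM against 26.4 and 36.1 CPM in Akr1a1 KO. Every stimulated library lay below every unstimulated one, but replicates differed widely. The change was -1.90 (SE 0.811, adjusted p = 0.101) in WT and -1.43 (SE 0.790, adjusted p = 0.191) in Akr1a1 KO. Without stimulated WT library A the Slc40a1 values were -4.13 and -1.43, and without stimulated WT library B they were -0.99 and -1.42. In each of these fits the stimulated WT group rests on the remaining library alone.

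Ireb2 went from 159 and 161 CPM to 131 and 127 CPM in WT, a fall of -0.31 (SE 0.105, adjusted p = 0.0463) whose call was lost on leaving out any of the 8 libraries. In Akr1a1 KO Ireb2 went from 161 and 158 CPM to 142 and 135 CPM (adjusted p = 0.168). Aco1 measured 81.7 and 75.2 CPM before and 66.2 and 44.6 CPM after stimulation in WT (adjusted p = 0.055), and 69.8 and 68.7 CPM before and 56.1 and 56.4 CPM after in Akr1a1 KO (adjusted p = 0.219). Without stimulated WT library A the WT value of Aco1 was -0.75, which rests on stimulated WT library B alone. Ncoa4 lay between 58.8 and 75.9 CPM in all 8 libraries, and its groups overlapped. With the unstimulated libraries of disagreeing title left out, 5 of the 10 genes passed in WT, without Tfrc and Ireb2, and 6 in Akr1a1 KO, against 23.2% and 25.1% of all genes tested in that fit. It leaves 1 unstimulated library per genotype, assumed to vary like the other groups.

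The rest of the pathway was read from wider lists that exclude the 10 genes. Of 8 heme synthesis genes in the BMDM table, 3 rose and 4 fell with stimulation in WT. Over all genes 60.9% passed there, 32.4% higher and 28.5% lower. Alas1, the rate-limiting first enzyme, rose by 1.69 (SE 0.075, adjusted p = 3.06e-12). The later enzymes Cpox and Alad fell by 1.46 and 1.30. In stimulated iNOS KO against WT libraries 4 of the 8 were higher and 3 lower, among them Alad at 0.85 and Ppox at -0.61. Over all genes 48.4% passed in that comparison. The list median was -0.20 for the WT response and 0.28 for iNOS KO against WT, beside 0.07 and -0.04 over all genes.

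Of 13 tested genes of heme breakdown, binding and transport, 5 rose and 2 fell with stimulation in WT (median 0.16), where 60.9% of all genes passed. Blvrb, a biliverdin reductase, rose by 1.45, the lysosomal heme transporter Slc48a1 by 1.74 and the heme exporter Flvcr1 by 1.31. Between stimulated genotypes 5 were higher and 4 lower in iNOS KO (median 0.22), where 48.4% of all genes passed. Slc46a1, a heme and folate transporter, was at 1.86 CPM in iNOS KO and 14.7 CPM in WT, a difference of -2.96 (SE 0.190, adjusted p = 1.11e-09). Flvcr1 differed by -1.32 (SE 0.122, adjusted p = 1.07e-07) and Blvra, the other biliverdin reductase, by 1.06 (SE 0.065, adjusted p = 6.36e-10). The group was mixed in direction between the genotypes.

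Of 14 tested genes of iron uptake, reduction and delivery, 4 rose and 3 fell in WT (median 0.59), where 60.9% of all genes passed. Lcn2, the siderophore-binding protein lipocalin 2, measured 45.5 CPM in stimulated WT and 348 CPM in stimulated iNOS KO libraries, from 0.195 and 0.0987 CPM unstimulated. The stimulated genotypes differed by 2.94 (SE 0.102, adjusted p = 5.06e-13), opposite to the 8 lower genes above. Slc25a37, the mitochondrial iron importer mitoferrin 1, rose by 2.41 (SE 0.071, adjusted p = 1.43e-14) in WT, and the endosomal ferrireductase Steap3 fell by 1.45 (SE 0.084, adjusted p = 1.06e-10). Between stimulated genotypes 4 of the 14 were higher and 3 lower in iNOS KO (median 0.11), where 48.4% of all genes passed. Among them were the zinc and iron importer Slc39a14 at 0.99 and the lysosomal channel Mcoln1 at -0.68.

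Of 7 tested genes of export partners and the hepcidin axis, 4 rose and 2 fell in WT (median 0.62). In stimulated iNOS KO 3 lay above and 3 below WT (median -0.96). For this and the next lists, 60.9% of all genes passed in the WT response and 48.4% between stimulated genotypes. Hfe, which modulates hepcidin signalling, fell by 1.01 in WT and was 0.83 higher in stimulated iNOS KO. Of 7 iron chaperones and iron sensors, 2 rose and 4 fell in WT (median -0.50), and stimulated iNOS KO libraries had 5 of them higher and 2 lower (median 0.60). Fbxl5, the iron-sensing subunit that targets IRP2 for degradation, rose by 1.41 (SE 0.081, adjusted p = 9.29e-11) in WT and was 1.09 (SE 0.078, adjusted p = 4.48e-09) higher still in stimulated iNOS KO, at 218 against 103 CPM. Of 10 regulators of Hmox1 transcription 7 rose and none fell in WT (median 0.46), with Maff at 3.49, Mafk at 1.64 and the repressor Bach1 at 0.57. Between stimulated genotypes 1 regulator was higher and 4 lower in iNOS KO (median -0.10). Maff, Mafk and Mafg differed by -0.28, -0.29 and -0.22, and their part in the Hmox1 difference was not tested.

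In RAW264.7 WT cells 1 of the 8 heme synthesis genes rose and 5 fell, with Alas1 at 1.29 and Cpox and Alad at -1.73 and -1.47. Over all genes 37.7% passed in this response, 18.5% higher and 19.2% lower. Of 11 tested uptake genes 5 rose and 3 fell, with Steap3 at -3.03 and Lcn2 at 186 CPM from 0.0322 CPM. Maff rose by 3.25 (SE 0.179, adjusted p = 6.85e-06). Between Akr1a1 KO and WT, 1 gene of these wider lists passed, in unstimulated libraries, where 0.583% of all genes passed. This was Slc39a8, a zinc and iron importer, at 0.0696 CPM in Akr1a1 KO and 4.53 CPM in WT (edgeR, adjusted p = 0.0384).

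For each gene, those of like pattern were found by Pearson's r of log2 CPM over the 12 libraries of the BMDM table, among 8562 candidates. The points share libraries and fall into clusters by stimulation, so r is a description. Nearest to Hmox1 were Plk2, Dusp1 and Plekhn1, each with r of 0.999 over the 12 libraries and 0.985 to 0.989 over the 8 RAW264.7 libraries. Fth1 was nearest to Grina (1.000 in the BMDM and 0.973 in the RAW264.7 table) and Ftl1 to Ppp2r5b (0.994 and 0.946). Slc11a1 was nearest to Tmem106a (1.000 and 0.696), Slc11a2 to Inpp4a (0.999 and 0.912) and Tfrc to Lrrc58 (0.990 and 0.798). Slc40a1, which had the reversed response, was nearest to Atp2c1, with r of 0.962 in the BMDM and 0.571 in the RAW264.7 table, and then to Kidins220 and Golga1, the latter at 0.954 and -0.837. Ireb2 was nearest to Sec63 (0.989 and 0.118), Aco1 to Cyb5r1 (0.917 and -0.527) and Ncoa4 to Zc3h14 (0.967 and 0.129). The genes nearest to Hmox1 thus kept r of 0.985 or more in the RAW264.7 table, where nearness was not ranked. Those of the other listed genes all had lower r there, down to -0.837 for Golga1 with Slc40a1.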

How the data were processed

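Libraries were poly(A) selected and sequenced by a service provider. The authors filtered reads after CASAVA base calling, aligned them to mm10 with STAR and deposited gene-level raw counts. The counting tool and its strand setting are not given in the sources used here. The positions in the tables do not match GENCODE vM21 (GRCm38) starts and the tables name no build, so gene positions are printed as listed, while hairpin coordinates are GRCm38 from GENCODE vM21. Sequences are from that release's transcripts.

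From the deposited counts, genes with at least 10 counts in total per table were kept (18691 and 19569 genes). Each table was fitted on its own with edgeR's quasi-likelihood test (edgeR 4.0.16, R 4.3.3), TMM normalisation, all its libraries and 1 coefficient per group. Adjusted p values are Benjamini-Hochberg over all genes tested in a comparison, with a limit of 0.05. Log2 changes are of this fit, CPM are TMM-normalised, and per-kilobase levels use the gene lengths listed in the tables. Ferritin ratios were compared by exact permutation tests over libraries. Alternatives were DESeq2 1.42.0, its size factors in edgeR, no filter, edgeR's filterByExpr, protein-coding genes alone, a replicate block, a log2 limit of 1, fits of 2 groups, and leaving out each library, or the RAW264.7 libraries with disagreeing titles. The models were also run on simulated counts with the same spread for every gene and no deviating library. That run does not bear on calls that depend on single libraries.

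Members and lists were chosen with earlier results of these data known. From each wider list, up to 4 genes per comparison were eligible to be named, by the largest absolute log2 change among called genes whose groups did not overlap and whose mean was at least 1 CPM. Some genes of these lists are not reported here by name. For each of the 10 genes the 3 genes of highest r with mean log2 CPM of at least 3 were eligible. Where the labels do not state separate cultures or mice, p values measure the spread between these libraries only, which may be technical. The 10 genes come from the same libraries and are not replicates. Letters A to C are shared by the groups. Deviations from the group means of same-lettered libraries correlated at 0.404, 0.497 and 0.121 between unstimulated and stimulated iNOS KO. Each was above the limit of 0.1 set for a pair. For the other BMDM comparisons at least 1 same-lettered pair was under that limit (lowest -0.343). In iNOS KO, unstimulated A also correlated at 0.402 with stimulated C, so whether the letters pair these libraries was not settled. With 2 letters, the RAW264.7 libraries give 1 correlation per comparison (0.438 for WT, 0.103 for Akr1a1 KO, -0.165 and -0.1 between genotypes), too few to decide. The replicate block changed no call of the 10 genes in the iNOS KO response. Amino acid sequences were not used here.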

Additional observations from a re-analysis of the deposited data

Results flagged for a closer look

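In the libraries labelled BMDM, the response to stimulation differed between iNOS KO and WT for 5 of the 10 genes, by the test of the difference itself (edgeR's quasi-likelihood test, adjusted over all genes), where 35.4% of all genes did. The difference of the log2 responses, iNOS KO minus WT, was -1.32 for Slc40a1, -1.23 for Hmox1, -0.94 for Tfrc, -0.75 for Slc11a2 and -0.22 for Fth1. Of these, Slc40a1 rose in WT and fell in iNOS KO, and Hmox1, Slc11a2 and Fth1 rose in both with a smaller rise in iNOS KO. The Fth1 call was lost on leaving out any of 9 of the 12 libraries, and the Tfrc call on leaving out stimulated WT library A. No cause was tested.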

How the results depend on the processing

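Over all comparisons and alternatives, 1742 values of the 10 genes kept their call, 73 lost it and 35 gained it. The sign differed from the main value in 42, none of them called in either fit. Among these, without stimulated WT library B, the difference between stimulated Akr1a1 KO and WT was -0.12 for Slc40a1 and the difference of the RAW264.7 responses was -0.24 for Hmox1. With an added limit of 1 on the absolute log2 change, the number of the 10 genes called became 5 for the iNOS KO response, 2 for stimulated iNOS KO against WT, 2 for the difference of the responses and 0 for the unstimulated genotypes. The unstimulated iNOS KO comparison gave 8 genes with its 2 groups fitted alone and 3 to 9 when a library was left out. In RAW264.7 cells, Akr1a1 KO against WT after stimulation gave 1 gene with DESeq2 (Fth1) and 1 without the filter on low counts (Slc40a1), and the difference of the responses gave 1 with DESeq2 (Fth1).

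With the library letter as a replicate block, 7, 9, 8, 5 and 5 of the 10 genes were called in the BMDM table (WT response, iNOS KO response, stimulated genotypes, unstimulated genotypes, difference of the responses) and 7, 6, 0, 0 and 0 in the RAW264.7 table. These counts equal those without the block, although in the RAW264.7 WT response Aco1 replaced Ireb2. In RAW264.7 cells the same letters of WT and Akr1a1 KO deviated in opposite directions, and a block with crossed letters, added after seeing the data, called 141 genes of all for the stimulated and 204 for the unstimulated genotypes, none of the 10.

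Over all genes, unstimulated iNOS KO against WT gave 1117 calls, 2715 with the 2 groups alone (the share of higher calls went from 31.5% to 47.0%) and 310 with the log2 limit. Akr1a1 KO against WT gave 56 calls stimulated and 114 unstimulated, 480 and 406 with DESeq2, and 1015 and 846 without the filter. Groups of 2 or 3 libraries limit which changes can be detected, most of all for Slc40a1 in RAW264.7 cells.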
